A study of Homo sapiens with 12 samples.

Results

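Neogenin and 8 other genes of axon guidance (UNC5B, NTN4, RGMB, ROBO1, PLXNA1, PLXNB2, SEMA3C and SEMA7A) were followed through RNA-sequencing data of WT and ΔCRE MDA-MB-231 cells. The 9 genes were chosen by symbol from the 24331 features of the deposited expression table, and each was found on 1 feature. They were selected on measured values as well as on function: NEO1, which encodes neogenin, was picked because it was almost absent in ΔCRE cells, and the others as its partners and as further guidance genes that the cells might express. Differences between ΔCRE and WT cells in these 9 genes are therefore given as a description, with no test. Tests were kept for their changes over time within a genotype and for genes outside the 9. These were a wider list of guidance genes and the neighbours of NEO1, which were taken by position. The wider list was also drawn up with earlier results of these data known. Its genotype tests are therefore not independent of that choice.

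MDA-MB-231 is a mesenchymal-like human breast cancer cell line. In ΔCRE cells, a stretch of the ETS1 promoter with binding sites for NFAT and NF-κB was removed with Cas9 and a pair of guide RNAs, and WT cells kept it. Cells of both genotypes were sampled without stimulation (0 h) and after 6 and 24 h with PMA, a phorbol ester, together with Ionomycin, a calcium ionophore, so that all stimulated groups share both agents. There were 2 biological replicates in each of the 6 groups. How many edited clones the ΔCRE libraries came from is not given in the sources used here, so the deletion and the clone cannot be told apart.

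Neogenin is a transmembrane receptor related to DCC. It binds netrins and the repulsive guidance molecules (RGMs), which are also co-receptors for bone morphogenetic proteins (BMPs). Netrins are read by UNC5 receptors too, Slits by ROBO receptors and semaphorins by plexins, often together with neuropilins. These ligands and receptors were first studied in growing axons, and they also act on the adhesion and migration of epithelial, vascular and cancer cells.

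Values are FPKM, fragments normalised for transcript length and sequencing depth, as estimated by the authors. The library labelled ΔCRE 0 h replicate 1 stood apart from the other 11. Its FPKM values summed to 1423335, against between 566255 and 651080 in each of the rest, and its 8 markers of gut epithelium summed to 9095 FPKM, against between 0.0395 and 0.371 in the others, where VIL1, CDX2 and REG1A were listed at 0. All 5 mesenchymal markers (VIM, CD44, AXL, CAV1 and MSN) were above 1 FPKM on average over the 11 libraries, as were 2 of 6 epithelial or luminal markers and 3 of 6 nervous tissue markers, and PGR and ELAVL4 were the only genes of these latter lists at 0 in all 11. In the library that stood apart, the 6 epithelial or luminal markers summed to 3083 FPKM, against between 35.5 and 110 in the others. The mesenchymal markers summed there to 1496 FPKM, against between 2149 and 3337. The nervous tissue markers came to 46.9 FPKM, against between 54.5 and 71.6. This library is shown apart. Differences were fitted on the other 11 with limma on log2(FPKM + 1), over the 11256 features with a mean of at least 1 FPKM. ΔCRE cells at 0 h are then represented by replicate 2 alone, which was given no test. Of the 9 genes, 8 passed the minimum, NEO1 only through its WT libraries, and UNC5B did not. In the fit of all 12 libraries the spread was larger, and its counts are given beside the main ones. No comparison tested uses ΔCRE at 0 h, so the log2 estimates of that fit were unchanged. Relative depth, read from the smallest steps between low FPKM values, lay between 73.0% and 119% of that of WT 0 h replicate 1 in the 11 libraries.

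Promoter sequence is shown for NEO1, the gene that was almost absent in ΔCRE cells, and for SEMA7A and RGMB, the ligand genes whose levels at 24 h differed most between the genotypes. Each line holds the 250 bases before 1 RefSeq transcription start in GRCh38.p14, the first by coordinate of 3 for RGMB and the more upstream of 2 for SEMA7A, read 5′ to 3′ on the strand of the gene, while the expression table uses hg19. Capitals mark matches to GGAA, the core letters read by ETS factors, on either strand (TTCC is the same match on the other strand), and to TGANTCA, the letters of an AP-1 site.
NEO1, chr15:73051652-73051901, plus strand: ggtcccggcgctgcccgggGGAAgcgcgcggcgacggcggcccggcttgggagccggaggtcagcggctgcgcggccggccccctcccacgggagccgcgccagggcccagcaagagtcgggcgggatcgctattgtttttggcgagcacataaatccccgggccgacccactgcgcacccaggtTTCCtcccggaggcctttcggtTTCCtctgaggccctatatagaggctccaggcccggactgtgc
SEMA7A, chr15:74433959-74434208, minus strand: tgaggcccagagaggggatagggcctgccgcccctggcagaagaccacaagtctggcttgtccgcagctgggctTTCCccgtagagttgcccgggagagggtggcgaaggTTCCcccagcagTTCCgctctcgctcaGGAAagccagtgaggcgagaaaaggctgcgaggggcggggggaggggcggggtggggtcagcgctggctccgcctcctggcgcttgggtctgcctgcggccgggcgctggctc
RGMB, chr5:98768382-98768631, plus strand: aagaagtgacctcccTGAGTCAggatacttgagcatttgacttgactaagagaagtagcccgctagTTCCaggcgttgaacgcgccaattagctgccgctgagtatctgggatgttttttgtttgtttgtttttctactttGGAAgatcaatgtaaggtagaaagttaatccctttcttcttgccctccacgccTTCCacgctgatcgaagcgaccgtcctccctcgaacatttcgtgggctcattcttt
GGAA was present before 13 of the 14 RefSeq starts that the table holds for 8 of the 9 genes, and PLXNB2 was the gene without it. Among 35116 promoters of the same length, 92.7% held GGAA, and the letters also occur inside NFAT sites. The longer ETS form CCGGAAG was found before none of the 14 starts and in 8.52% of all promoters. TGANTCA was found before 1 of the 3 RGMB starts, the one shown, before none of the other starts, and in 6.57% of all promoters. These matches are letters only and say nothing of binding.

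NEO1 was expressed at all 3 time points in WT cells and was close to 0 in ΔCRE cells. Its locus spans 73344825 to 73597547 on chromosome 15 (hg19, as for all loci given with expression values). It reached in WT cells 3.67 and 3.96 FPKM at 0 h, 3.54 and 3.35 FPKM at 6 h and 4.11 and 4.29 FPKM at 24 h. In ΔCRE cells it reached 0.0681 and 0.207 FPKM at 6 h and 0.128 and 0.0926 FPKM at 24 h, and 0.200 FPKM at 0 h in replicate 2. The genotypes did not overlap at any time point. The ΔCRE mean was 3.99% of the WT mean at 6 h and 2.63% at 24 h, and the 0 h library stood at 5.26%. The log2 difference was -1.97 ± 0.09 (SE) at 6 h and -2.23 ± 0.09 at 24 h with a pseudocount of 1, which understates the change of a gene at this level, and -3.96 and -4.36 with a pseudocount of 0.1. NEO1 was at 7.42 FPKM in ΔCRE 0 h replicate 1, the library set apart. This was 195% of the WT mean at 0 h and above every other library.

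ETS1, next to the deletion, did not share this pattern. ΔCRE cells kept 43.9% of the WT level of ETS1 at 6 h and 79.0% at 24 h, whereas NEO1 stayed at 5.26% or less of its WT level at every time point in the 11 libraries. ETS1 went from 23.8 FPKM to 142.2 FPKM between 0 and 6 h in WT cells. The log2 change of NEO1 with stimulation was -0.11 ± 0.09 (SE) at 6 h (limma, adjusted p = 0.353) and 0.11 ± 0.09 at 24 h (adjusted p = 0.337), so that a response of NEO1 to PMA/Ionomycin in WT cells was not detected.

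**Figure D1:**
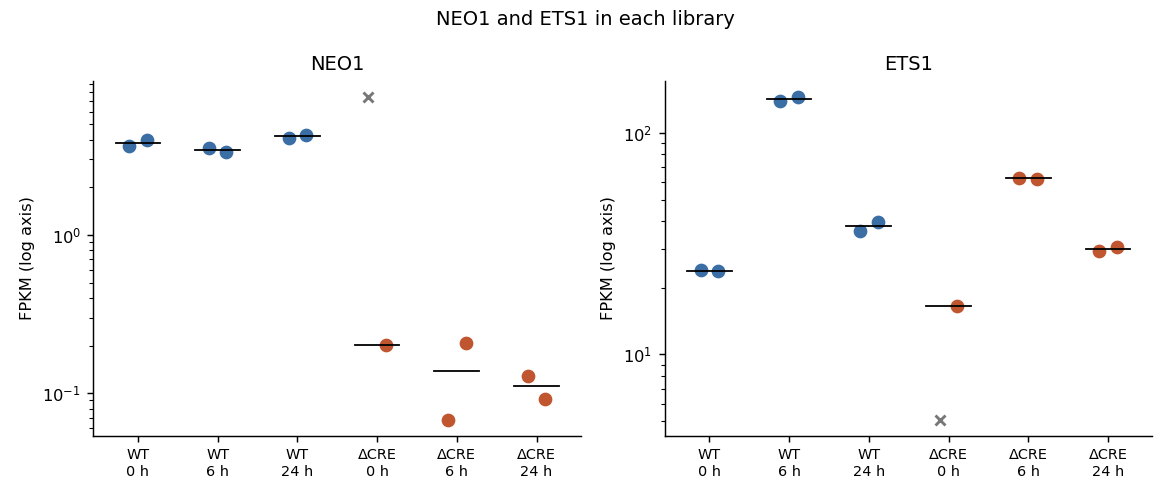
FPKM of NEO1 and ETS1 in each library, on log axes, by genotype and hours of PMA/Ionomycin. Points are libraries, lines are group means, and the grey cross is the library labelled ΔCRE 0 h replicate 1, left out of the mean. NEO1 lay between 3.35 and 4.29 FPKM in WT cells and between 0.0681 and 0.207 FPKM in the other ΔCRE libraries, while ETS1 was higher at 6 h than at 0 or 24 h in both genotypes.

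DCC, the paralog of NEO1, was listed at 0 in all 11 libraries and at 0.0137 FPKM in the library set apart. No other gene of the netrin and RGM branch reached the minimum. All 13 of them, among them the netrins NTN1, NTN3 and NTN5, the receptors UNC5A, UNC5C and UNC5D, and RGMA, had a mean below 1 FPKM. Among the genes examined here, the branch was thus represented above this minimum by NTN4 and RGMB and, in WT cells only, by NEO1.

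UNC5B, a netrin receptor, was near the limit of detection in these cells. It lies on chromosome 10 from 72972292 to 73062635. Its level was 0.0256 and 0.00890 FPKM in WT cells at 0 h, 0.123 and 0.0727 FPKM at 6 h and 0.0646 and 0.0260 FPKM at 24 h. In ΔCRE cells it was 0.105 and 0.0625 FPKM at 6 h, 0.0827 and 0.1003 FPKM at 24 h, and 0.0884 FPKM in replicate 2 at 0 h. If the lowest value is taken as 1 fragment, these levels correspond to between 1 and 15 fragments per library, each within 0.054 of a whole number. At 0 h ΔCRE replicate 2 was above both WT libraries, the groups overlapped at 6 h, and at 24 h both ΔCRE libraries were above both WT libraries. The inferred counts were 12 against 3 and 1 fragments at 0 h, and 10 and 14 against 8 and 3 fragments at 24 h. No counting error was computed for them. The library set apart was the highest, at 0.278 FPKM, where the antisense gene UNC5B-AS1, which overlaps it, was also highest.

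Of the ligands, NTN4 fell with stimulation to nearly the same levels in both genotypes. NTN4 is a secreted netrin that binds laminins of the basement membrane, and its gene lies on chromosome 12 from 96043031 to 96184536. WT cells had 7.93 and 8.12 FPKM at 0 h, 6.17 and 5.95 FPKM at 6 h and 3.10 and 3.02 FPKM at 24 h. ΔCRE cells had 8.67 FPKM at 0 h in replicate 2, 5.78 and 5.79 FPKM at 6 h and 3.36 and 3.15 FPKM at 24 h. Within each genotype the levels at the 3 time points did not overlap. In WT cells the log2 change was -0.35 ± 0.06 (SE) at 6 h (limma, adjusted p = 0.0021) and -1.15 ± 0.06 at 24 h (adjusted p = 2.55e-06). ΔCRE cells differed from WT cells by a log2 value of -0.06 ± 0.06 at 6 h and 0.07 ± 0.06 at 24 h.

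RGMB, a membrane-anchored ligand of neogenin and a BMP co-receptor, rose with stimulation in WT cells and had lower values in ΔCRE cells at 24 h. It lies on chromosome 5 from 98104999 to 98132198. WT cells had 8.14 and 8.71 FPKM at 0 h, 15.3 and 14.9 FPKM at 6 h and 14.5 and 14.9 FPKM at 24 h. ΔCRE cells had 7.98 FPKM at 0 h in replicate 2, 14.1 and 13.9 FPKM at 6 h and 11.2 and 12.3 FPKM at 24 h. The WT change was a log2 value of 0.77 ± 0.06 (SE) at 6 h (limma, adjusted p = 2.87e-05) and 0.74 ± 0.06 at 24 h (adjusted p = 3.05e-05). Both ΔCRE libraries were below both WT libraries at 6 and at 24 h. The ΔCRE mean was 92.6% of the WT mean at 6 h and 79.9% at 24 h, where the log2 difference was -0.30 ± 0.06. The locus overlaps FLJ35946, which stayed between 0.185 and 1.19 FPKM in the 11 libraries.

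SEMA3C, a secreted semaphorin read by neuropilins and plexins, peaked at 6 h. It lies on chromosome 7 from 80371854 to 80548667. WT cells had 13.4 and 16.8 FPKM at 0 h, 27.4 and 28.4 FPKM at 6 h and 13.5 and 13.6 FPKM at 24 h. ΔCRE cells had 11.6 FPKM at 0 h in replicate 2, 28.3 and 31.1 FPKM at 6 h and 14.6 and 15.2 FPKM at 24 h. In WT cells the log2 change was 0.85 ± 0.10 (SE) at 6 h (adjusted p = 2.02e-04, limma). At 24 h it was -0.14 ± 0.10 (adjusted p = 0.259, limma), and it depended on the 0 h libraries: without WT 0 h replicate 2 it changed sign to 0.02 (adjusted p = 0.852), and without WT 0 h replicate 1 it was -0.29 and passed the threshold (adjusted p = 0.0148). The genotypes overlapped at 6 h, and at 24 h both ΔCRE libraries were above both WT libraries, by a log2 value of 0.12 ± 0.10.

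SEMA7A showed the steepest rise of the 8 tested genes in WT cells, and its level after stimulation was higher still in ΔCRE cells. It encodes a semaphorin anchored to the membrane by a lipid, which binds integrins and plexin C1. Its gene lies on the same chromosome as NEO1, from 74701630 to 74726299, about 1104.1 kb beyond it. WT cells had 2.60 and 3.03 FPKM at 0 h, 10.4 and 10.2 FPKM at 6 h and 9.30 and 9.06 FPKM at 24 h. ΔCRE cells had 3.39 FPKM at 0 h in replicate 2, 12.6 and 12.5 FPKM at 6 h and 12.8 and 11.5 FPKM at 24 h. In WT cells the log2 change was 1.57 ± 0.07 (SE) at 6 h (limma, adjusted p = 1.18e-06) and 1.42 ± 0.07 at 24 h (adjusted p = 2.18e-06). No ΔCRE library overlapped the WT libraries of its time point. The ΔCRE mean was 122% of the WT mean at 6 h and 132% at 24 h, with log2 differences of 0.26 ± 0.07 and 0.37 ± 0.07.

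Of the receptors other than neogenin, ROBO1 and PLXNA1 fell with stimulation. ROBO1, a receptor for Slits, lies on chromosome 3 from 78646388 to 79817059. It was at 7.42 and 7.15 FPKM in WT cells at 0 h, 6.17 and 6.32 FPKM at 6 h and 4.24 and 5.03 FPKM at 24 h. In ΔCRE cells it was at 8.03 FPKM at 0 h in replicate 2, 6.34 and 6.52 FPKM at 6 h and 4.65 and 4.64 FPKM at 24 h. The WT log2 change was -0.19 ± 0.08 (SE) at 6 h (adjusted p = 0.0701, limma), which passed the threshold after rescaling to TPM or without either WT 24 h replicate, and -0.56 ± 0.08 at 24 h (adjusted p = 4.02e-04, limma). The genotypes differed by a log2 value of 0.04 ± 0.08 at 6 h, where both ΔCRE libraries were above both WT libraries, and by 0.01 ± 0.08 at 24 h, where they overlapped.

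PLXNA1, a receptor for class 3 and class 6 semaphorins, had the highest FPKM of the 9 genes in each of the 11 libraries. It lies on chromosome 3 from 126707437 to 126756235. WT cells had 44.3 and 42.9 FPKM at 0 h, 34.5 and 33.4 FPKM at 6 h and 27.3 and 27.1 FPKM at 24 h. ΔCRE cells had 47.1 FPKM at 0 h in replicate 2, 37.0 and 32.3 FPKM at 6 h and 29.6 and 27.2 FPKM at 24 h. The WT log2 change was -0.35 ± 0.07 (SE) at 6 h (limma, adjusted p = 0.0046) and -0.66 ± 0.07 at 24 h (adjusted p = 1.22e-04). The genotypes overlapped at both times, with log2 differences of 0.03 ± 0.07 and 0.06 ± 0.07.

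PLXNB2, a receptor for class 4 semaphorins, went the other way from PLXNA1. It lies on chromosome 22 from 50713408 to 50746001. WT cells had 18.1 and 17.4 FPKM at 0 h, 29.7 and 28.9 FPKM at 6 h and 21.9 and 22.1 FPKM at 24 h. ΔCRE cells had 21.4 FPKM at 0 h in replicate 2, 31.6 and 29.4 FPKM at 6 h and 25.2 and 23.7 FPKM at 24 h. The WT log2 change was 0.69 ± 0.06 (SE) at 6 h (limma, adjusted p = 3.42e-05) and 0.29 ± 0.06 at 24 h (adjusted p = 0.0029). The genotypes overlapped at 6 h, with a log2 difference of 0.06 ± 0.06, and at 24 h both ΔCRE libraries were above both WT libraries, by 0.15 ± 0.06.

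Counted together, stimulation moved 6 of the 8 tested genes in WT cells at 6 h: RGMB, PLXNB2, SEMA3C and SEMA7A rose, and NTN4 and PLXNA1 fell. Over all 11256 features, 23.3% rose and 21.1% fell in this comparison. At 24 h RGMB, PLXNB2 and SEMA7A were higher and NTN4, ROBO1 and PLXNA1 lower than at 0 h, where 26.5% of all features rose and 28.2% fell. Both comparisons use the same WT 0 h libraries. In the fit of all 12 libraries, 3 genes passed at 6 h (RGMB, PLXNB2 and SEMA7A) and 2 at 24 h (RGMB and SEMA7A). Rescaling to TPM moved the median 6 h log2 change over all features from -0.001 to -0.12. Rises made up 52.5% of all calls before and 35.0% after this rescaling, which turned the direction of none of the 8 genes.

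From 6 to 24 h, 5 of the 8 genes fell in WT cells (NTN4, ROBO1, PLXNA1, PLXNB2 and SEMA3C) and none rose, against 26.3% of all features that fell and 20.5% that rose. The same 5 genes and RGMB fell in ΔCRE cells over this interval and none rose, against 27.5% and 22.1% of all features. NEO1 is among the 8, but near 0 in ΔCRE cells it had little room to fall (log2 change -0.03 ± 0.09, SE). Its place in that count is not read as a result. With all 12 libraries in the fit, 1 gene fell in WT cells and none passed in ΔCRE cells, where 3 had an unadjusted p under 0.05. The genotype difference in this change is made of the same comparisons that were known when the genes were picked, so it is given without a test. For the 7 genes other than NEO1 it lay between -0.20 ± 0.09 (SE) for RGMB and 0.12 ± 0.09 for NTN4 on the log2 scale.

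Between the genotypes, NEO1 differed from the other 7 genes above the minimum in size. At 6 h the log2 difference of those 7 lay between -0.10 (RGMB) and 0.26 (SEMA7A), and at 24 h between -0.30 (RGMB) and 0.37 (SEMA7A). At 6 h both ΔCRE libraries were above both WT libraries for ROBO1 and SEMA7A and below them for NEO1, NTN4 and RGMB. Among all features, 29.0% and 25.6% were separated in this way upward and downward. At 24 h 4 genes were above (NTN4, PLXNB2, SEMA3C and SEMA7A) and 2 below (NEO1 and RGMB), against 26.8% and 25.0% of all features. The shares are not read as a result, since the genes were picked with these values known.

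The genes next to NEO1 on chromosome 15 were tested to see how far its low level extended. The 5 tested features on each side reach from PARP6, 781.2 kb before NEO1, to STOML1, 678.0 kb behind it. ADPGK, an ADP-dependent glucokinase gene and the nearest on the near side, differed by a log2 value of 0.05 ± 0.06 (SE) at 6 h and -0.02 ± 0.06 at 24 h. NPTN, which encodes the adhesion molecule neuroplastin and is the nearest on the far side, differed by -0.01 ± 0.06 and 0.05 ± 0.06. At 6 h 1 of the 10 neighbours was called, HEXA, which encodes a subunit of a lysosomal enzyme, at -0.23 ± 0.06 (adjusted p = 0.0388, limma), against 6.22% of all features that were lower and 3.62% that were higher. That call was lost without WT 6 h replicate 1 or 2, WT 24 h replicate 1 or 2, ΔCRE 6 h replicate 2 or ΔCRE 24 h replicate 1 or 2, where the adjusted p lay between 0.0594 and 0.186, and with all 12 libraries. At 24 h none of the 10 was called with limma, and 2 had an unadjusted p under 0.05, against 3.97% of all features called lower and 2.35% called higher. The lowest estimates were those of LOXL1, a lysyl oxidase of elastic fibres, and LOXL1-AS1, which share a locus. They lay at -0.31 ± 0.15 and -0.49 ± 0.16 at 6 h and at -0.46 ± 0.15 and -0.39 ± 0.16 at 24 h, and neither passed the threshold. The pseudocount of 1 understates changes at their levels. LOXL1 averaged 1.05 FPKM in WT and 0.652 FPKM in ΔCRE cells at 6 h, and 1.26 and 0.638 FPKM at 24 h. LOXL1-AS1 averaged 2.80 and 1.73 FPKM at 6 h, and 2.98 and 2.03 FPKM at 24 h.

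**Figure D2:**
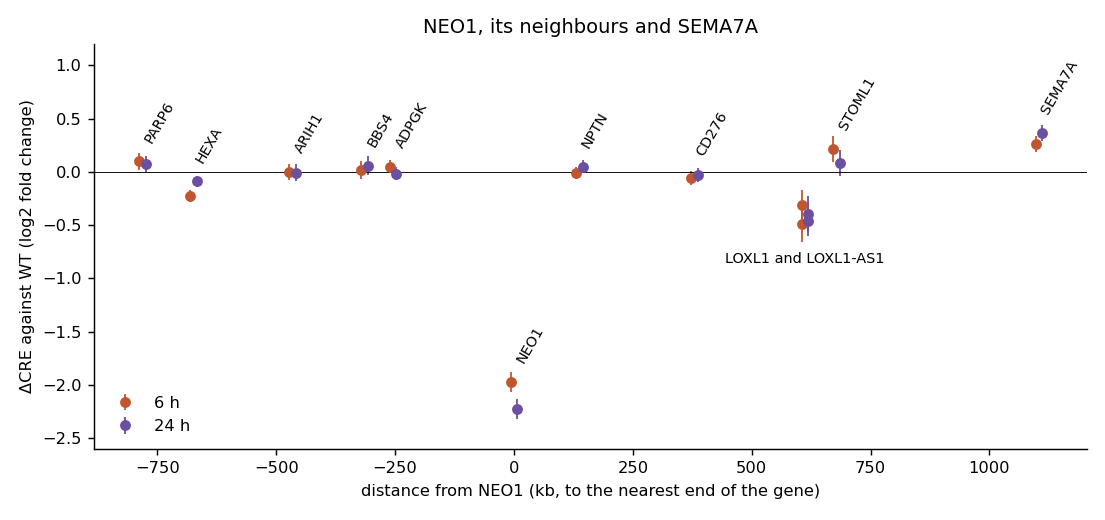
Log2 difference between ΔCRE and WT cells (log2 FPKM + 1, with SE) at 6 and 24 h for NEO1, the 5 tested features on each side and SEMA7A, against their distance from NEO1 in kb. The 10 neighbours lay between -0.49 and 0.21, and NEO1 at -1.97 and -2.23. LOXL1 and LOXL1-AS1 share a position.

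The features whose pattern over the 11 libraries was most like that of NEO1, by Pearson's r of log2(FPKM + 1), were CHRDL1 (r = 0.991), NELL2 (r = 0.985), PPP2R2D (r = 0.974), PGAM1 (r = 0.974) and TEKT4P2 (r = 0.973). The 11 points fall into 2 clusters, WT and ΔCRE, so r mostly follows that separation and is given without a p. CHRDL1, an X-linked gene for a BMP antagonist of the chordin family, was between 2.25 and 3.11 FPKM in the 6 WT libraries. In ΔCRE cells it was listed at 0 in 3 libraries and at 0.0267 and 0.0130 FPKM in the other 2. NELL2, a secreted guidance cue that binds ROBO3, was between 2.58 and 3.88 FPKM in WT cells and between 0.126 and 0.299 FPKM in ΔCRE cells. TEKT4P2, a pseudogene that could share reads with its relatives, went from between 4.57 and 6.24 FPKM to between 1.08 and 1.92 FPKM. PPP2R2D and PGAM1 moved much less, from 19.6 FPKM or more to 16.4 FPKM or less and from 424.4 FPKM or more to 363.95 FPKM or less. Both lie on chromosome 10, from 133747960 and from 99186027, as do MRPL43, DNMBP and MARVELD1, which ranked 6, 7 and 9 by r. TUSC3 and EMP1, ranked 8 and 10, lie on chromosomes 8 and 12. Whether that part of chromosome 10 differs as a whole between the genotypes was not tested here. In the library set apart, CHRDL1 was listed at 0 and NELL2 at 0.295 FPKM, near the other ΔCRE libraries, while NEO1 and TEKT4P2 were higher there than in any other library.

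A wider list of 114 guidance genes, drawn up with earlier results of these data known, was compared between the genotypes. Of these, 66 passed the minimum. At 6 h 3 were higher and 8 lower in ΔCRE cells, with a median log2 difference of -0.05 against 0.01 over all features, of which 3.62% were higher and 6.22% lower. At 24 h 3 were higher and 4 lower, against 2.35% and 3.97% of all features. These counts rested on the fit. With all 12 libraries 1 of 65 genes remained above the threshold at 6 h, and at 24 h 0 of 65 passed with limma, where 4 had an unadjusted p under 0.05. The 24 h count of 7 fell to between 1 and 4 without any one library of the WT groups or of ΔCRE 24 h, and was 5 or more without one of the other ΔCRE libraries. The 6 h count of 11 fell to 7 without WT 6 h replicate 1 or 2 or without ΔCRE 6 h replicate 2.

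The ephrins moved both ways. EFNB2, a membrane-bound ligand of EPHB receptors, was at 5.46 and 6.41 FPKM in WT cells at 6 h and at 11.7 and 12.3 FPKM in ΔCRE cells. In both genotypes it was between 11.6 and 12.9 FPKM at 0 h, replicate 2 alone for ΔCRE. Its log2 difference was 0.91 ± 0.08 (SE, adjusted p = 4.89e-04, limma) at 6 h, where the call held in all 19 alternatives tried, and 0.55 ± 0.08 (adjusted p = 0.0080, limma) at 24 h, where it held in 15 of 19 and was lost without WT 24 h replicate 1 or ΔCRE 24 h replicate 2. EFNA5, a ligand of EPHA receptors, was higher at both times, by 0.38 ± 0.08 (adjusted p = 0.0230, limma) and 0.36 ± 0.08 (adjusted p = 0.0391, limma). The 6 h call was lost without any one of the 4 libraries compared, and the 24 h call without any one library other than ΔCRE 0 h replicate 2 or ΔCRE 24 h replicate 1. EFNA1, which binds EPHA2, went the opposite way at 6 h, from 10.8 and 12.6 FPKM in WT cells to 5.37 and 5.68 FPKM in ΔCRE cells (log2 difference -0.96 ± 0.12, adjusted p = 0.0023, limma), and was at 12.1 and 11.4 against 12.8 and 9.80 FPKM at 24 h, where the groups overlapped. It was at 100.7 FPKM in ΔCRE 0 h replicate 1. The 6 h call was lost when that library, which belongs to neither 6 h group, was included in the fit.

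Among the receptors of the list, ROBO4, a ROBO family member known from blood vessels, was lower at both times. WT cells had 2.21 and 2.06 FPKM at 6 h and 10.2 and 9.44 FPKM at 24 h, and ΔCRE cells 0.983 and 0.761 FPKM and then 5.63 and 5.75 FPKM. The log2 difference was -0.75 ± 0.09 (SE, adjusted p = 0.0020, limma) and -0.69 ± 0.09 (adjusted p = 0.0040, limma), and the fit of all 12 libraries was the only one of 18 alternatives to lose either call. At 0 h ROBO4 was at 1.22 and 1.08 FPKM in WT cells and at 0.605 FPKM in ΔCRE replicate 2. NRP2, a neuropilin that serves as co-receptor for class 3 semaphorins, was at 1.83 and 1.78 FPKM in WT cells at 6 h and at 0.563 and 0.375 FPKM in ΔCRE cells (-0.93 ± 0.10, adjusted p = 0.0012, limma). At 24 h it was lower by -0.44 ± 0.10 (adjusted p = 0.0394, limma), a call that was lost without any one of the WT libraries of 6 or 24 h or the ΔCRE libraries of 24 h. The paper had already named NRP2 among the genes altered in ΔCRE cells, from these same data. PLXNA2, a plexin of the same class as PLXNA1, was at 15.5 and 14.6 FPKM in WT cells and 10.6 and 10.3 FPKM in ΔCRE cells at 6 h (-0.49 ± 0.07, adjusted p = 0.0036, limma). At 24 h the 4 libraries lay between 8.54 and 8.69 FPKM. From 0 to 6 h in WT cells PLXNA2 rose by a log2 value of 0.84 ± 0.07 (adjusted p = 2.50e-05, limma), whereas PLXNA1 fell.

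DPYSL2, a cytoplasmic mediator of semaphorin signals that binds tubulin, was lower in ΔCRE cells by -0.66 ± 0.06 (SE, adjusted p = 3.16e-04, limma) at 6 h, from 14.1 and 13.3 FPKM to 8.37 and 8.18 FPKM, and by -0.24 ± 0.06 (adjusted p = 0.0426, limma) at 24 h, a call that was lost without any one of 10 of the 11 libraries. BMP4 was lower by -0.52 ± 0.08 (adjusted p = 0.0045, limma) at 6 h, from 4.51 and 4.94 FPKM to 2.87 and 3.11 FPKM, and overlapped at 24 h. Smaller calls were those of the semaphorin gene SEMA6B, higher at 6 h by 0.40 ± 0.09 (adjusted p = 0.0266, limma), of NRP1, higher at 24 h by 0.25 ± 0.06 (adjusted p = 0.0391, limma), and of SEMA4B, lower at 24 h by -0.34 ± 0.07 (adjusted p = 0.0360, limma). Each of these 3 was lost without either WT replicate of that time, without either ΔCRE replicate of that time and in the fit of all 12 libraries. For none of the 66 genes did the change from 6 to 24 h differ between the genotypes at the threshold with limma, and 12 had an unadjusted p under 0.05. Over all features 0.16% passed.

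**Figure D3:**
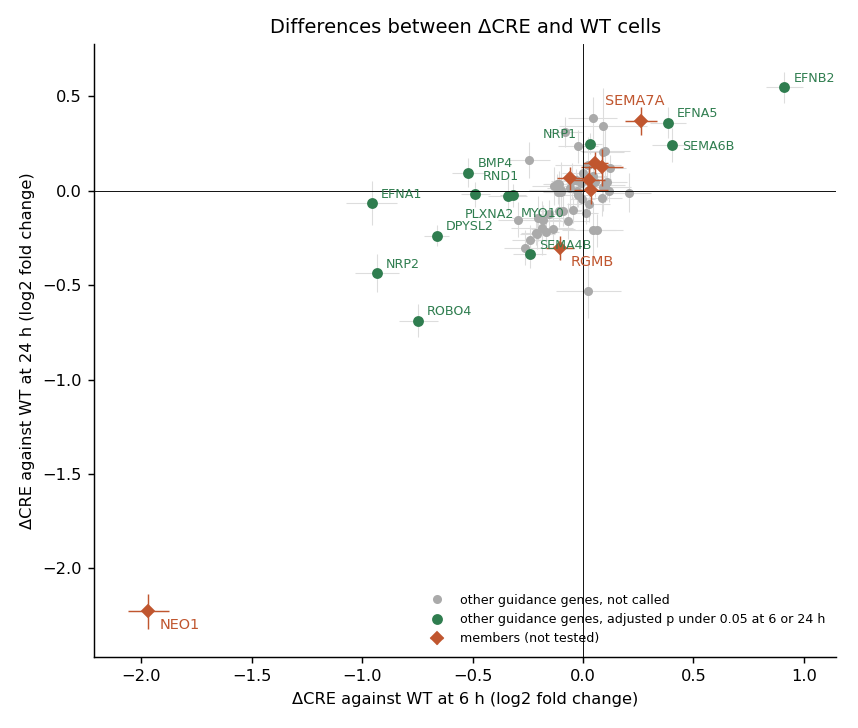
Log2 difference between ΔCRE and WT cells at 6 h (x axis) and 24 h (y axis), with SE. Shown are the 8 members of the set above the minimum, which were not tested between genotypes, and the 66 tested genes of the wider list. Green points are genes of the wider list that passed an adjusted p under 0.05 at either time. NEO1 stands at -1.97 and -2.23, away from all others, and EFNB2 has the highest values, 0.91 and 0.55.

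Over time in WT cells, 24 of the 66 genes rose and 21 fell at 6 h, and 27 rose and 22 fell by 24 h, against 23.3% and 21.1% of all features at 6 h and 26.5% and 28.2% at 24 h. With all 12 libraries, 13 and 14 of 65 passed. The genes of the RGM and BMP receptor branch moved mostly downward. They comprise BMP receptors, ligands, SMAD effectors and targets of BMP signals, which RGMs modulate. Of 13 tested genes of this branch, 11 fell and none rose at 6 h, with a median log2 change of -0.41 against -0.001 over all features, and at 24 h 9 fell and 1 rose, with a median of -0.58 against -0.02. The falls at 24 h were those of the targets SMAD6, SMAD7, ID1, ID2 and ID3, the ligand gene BMP4, SMAD5, BMPR1A and BMPR2. The receptor gene ACVR1 rose. The counts of falls were 3 and 5 with all 12 libraries, and 11 and 9 after rescaling to TPM. Leaving out 1 library at a time gave between 6 and 11 falls at 6 h and 8 or 9 at 24 h.

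ID1, ID2 and ID3, transcriptional inhibitors that are known targets of BMP signals, were among those that fell. ID1 went from 165.1 and 158.4 FPKM at 0 h to 48.6 and 46.9 FPKM at 24 h in WT cells, a log2 change of -1.74 ± 0.07 (SE, adjusted p = 6.14e-07, limma). ID2 went from 8.16 and 7.87 FPKM to 1.44 and 0.822 FPKM at 6 h (-2.10 ± 0.14, adjusted p = 8.88e-06, limma), and ID3 from 78.7 and 74.3 FPKM to 30.0 and 28.8 FPKM at 24 h (-1.35 ± 0.08, adjusted p = 5.78e-06, limma). SMAD6, an inhibitory SMAD and itself a BMP target, fell from 7.83 and 8.23 FPKM to 1.49 and 0.671 FPKM at 6 h (-2.15 ± 0.20, adjusted p = 6.22e-05, limma). The ligand gene BMP4 fell from 17.1 and 17.1 FPKM to 4.51 and 4.94 FPKM (-1.66 ± 0.08, adjusted p = 9.51e-07, limma). The receptor genes BMPR1A and BMPR2 fell by 0.49 and 0.44 on the log2 scale at 6 h (adjusted p = 0.0032 and 0.0029, limma), while the co-receptor gene RGMB rose. In ΔCRE cells ID1 was at 82.3 and 89.9 FPKM at 6 h and 50.2 and 45.1 FPKM at 24 h, and ID2 was at 1.06 and 1.29 FPKM and 0.886 and 0.768 FPKM.

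In WT cells at 24 h, 5 of 7 tested semaphorin genes and 5 of 7 plexin and neuropilin genes rose, and 1 of each fell, against 26.5% and 28.2% of all features. With all 12 libraries 1 and 2 rose and none fell, where 1 gene of each list was lower at an unadjusted p under 0.05. SEMA4B, a transmembrane semaphorin, went from 9.91 and 8.96 FPKM to 47.9 and 44.5 FPKM at 6 h (log2 change 2.18 ± 0.07, SE, adjusted p = 1.65e-07, limma). SEMA3A, which signals through NRP1 and PLXNA1, went from 3.58 and 4.34 FPKM to 8.12 and 9.41 FPKM at 24 h (0.98 ± 0.10, adjusted p = 6.32e-05, limma), and PLXNA3, a plexin of the PLXNA1 class, from 3.16 and 2.86 FPKM to 10.4 and 9.06 FPKM at 6 h (1.42 ± 0.09, adjusted p = 7.93e-06, limma). SEMA6B was the exception among the named genes, at 18.2 and 15.9 FPKM and then 8.57 and 7.66 FPKM at 6 h (-0.99 ± 0.09, adjusted p = 5.33e-05, limma). Downstream of the receptors, RND1, a small GTPase that binds plexins, rose at 6 h by 1.30 ± 0.09 (adjusted p = 1.04e-05, limma) and MICAL1, an enzyme that oxidises actin, at 24 h by 1.28 ± 0.09 (adjusted p = 1.16e-05, limma). EPHA2, a receptor of EFNA1, rose at 6 h from 82.1 and 78.0 FPKM to 160.6 and 152.1 FPKM (0.96 ± 0.06, adjusted p = 1.02e-05, limma), and ROBO4 had the largest rise of the list at 24 h (2.33 ± 0.09, adjusted p = 3.89e-07, limma). The calls of EPHA2 and SEMA3A were lost in the fit of all 12 libraries, and those of the other genes named by the rule in these comparisons were not.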

How the data were processed

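Expression was measured by RNA-sequencing of stranded mRNA libraries from WT and ΔCRE MDA-MB-231 cells. The authors aligned the sequences to hg19 with TopHat, estimated expression with Cufflinks and deposited 1 FPKM value per feature and library. The annotation, and whether FPKM were scaled between libraries, are not given in the sources used here. Groups and replicates came from the sample labels, and 2 of the 12 columns, whose names match no label exactly, were matched to the only labels left.

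The 9 genes, the list of 114 guidance genes and the fit without ΔCRE 0 h replicate 1 were chosen with earlier results of these data known. On log2(FPKM + 1), 1 model of 6 groups was fitted with limma 3.58.1 (R 4.3.3, lmFit and eBayes with trend), with Benjamini-Hochberg adjustment over 11256 features and a threshold of 0.05. The script was tested on simulated data. From the wider list, up to 6 genes each way were named per genotype comparison and up to 4 each way per WT time comparison, by size among called genes whose groups did not overlap. BMPR1A, BMPR2, ACVR1, SMAD5 and SMAD7 were named after their values were seen. p-values rest on the spread between 2 replicates per group, pooled over the groups of the model and drawn toward a trend over all features. ΔCRE at 0 h, with 1 library, adds nothing to that spread. No counting intervals were computed, since the deposited FPKM values come without counts. The fragment numbers of UNC5B were inferred from steps between values, with its lowest value taken as 1 fragment. Alternatives were all 12 libraries, a pseudocount of 0.1, no filter, a minimum of 5 FPKM, TPM, quantile normalization, the replicate number as a block, a fit of only the groups compared and leaving out each library.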

Additional observations from a re-analysis of the deposited data

Results flagged for a closer look

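Of the 9 genes, 4 were above both WT 0 h libraries in ΔCRE 0 h replicate 1, a library used only in the fit of all 12 libraries. In it NEO1 was at 7.42 FPKM, UNC5B at 0.278 FPKM, PLXNB2 at 23.5 FPKM and SEMA7A at 3.85 FPKM. Its FPKM values also have the highest sum of all libraries. The share of all features above both WT libraries was not computed, so the count is not read as a result about these genes. For UNC5B, PLXNB2 and SEMA7A, ΔCRE 0 h replicate 2 was above both WT libraries too, at 0.0884, 21.4 and 3.39 FPKM. The other genes were at or below the WT range in the library set apart, with NTN4 at 1.78, PLXNA1 at 14.1 and SEMA3C at 4.95 FPKM. That library also held the gut markers, and the part of those in its values was not tested.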

How the results depend on the processing

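Of the counts of calls under each alternative, 176 stayed within 1.5 times the main count and 33 did not. With all 12 libraries, 1 of the guidance genes (main 11) differed between genotypes at 6 h and 0 (main 7) at 24 h, 13 and 14 (main 45 and 49) changed in WT cells at 6 and 24 h, 3, 2 and 1 of the 8 genes (main 6, 6 and 5) changed in WT cells at 6 h, at 24 h and from 6 to 24 h, 0 (main 6) changed in ΔCRE cells from 6 to 24 h, and 0 neighbours (main 1) differed at 6 h. With only the groups compared, the guidance genes came to 6 and 1 at 6 and 24 h and the neighbours at 6 h to 0. TPM gave 4 guidance genes at 24 h and lowered the share of higher calls among all features there from 37.2% to 24.7%. With the replicate block, 11 guidance genes and 1 neighbour (main 0) were called at 24 h. Same-numbered libraries deviated together with an r between -0.027 and 0.107. It was between -0.027 and -0.013 for 2 WT groups and between 0.088 and 0.107 where a ΔCRE group took part. Over all features the replicate block gave 1805 genotype calls at 6 h (main 1107) and 1407 at 24 h (main 712). Whether the numbers pair the samples was not tested. Leaving out 1 library at a time gave between 7 and 11 guidance genes at 6 h, between 1 and 7 at 24 h, and 0 or 1 neighbours at 6 h. Of the log2 changes of the 8 genes, 735 kept their call. For ΔCRE against WT differences at 6 and 24 h this means a move of less than the SE, and 8 of them moved by more. Another 4 values gained and 7 lost the call, all 7 with the 12 libraries. SEMA3C at 24 h in WT cells reversed to 0.0195 without WT 0 h replicate 2 (range -0.29 to 0.0195). Genotype differences in the change from 6 to 24 h are among the 735. They were counted here by their call, although given above without a test. Estimates within their SE of 0 also changed sign: the genotype differences of PLXNA1 (-0.07 to 0.12 at 6 h) and ROBO1 (-0.09 to 0.11 at 24 h), that of PLXNA1 at 24 h, and the differences in the change from 6 to 24 h of PLXNA1, ROBO1 and SEMA3C. For the other named genes, 522 calls held and 95 were lost. With 2 libraries per group, and 1 for ΔCRE at 0 h, small differences can go undetected.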
